A study of Mus musculus with 4 samples.

Results

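Gdnf, Gfra1, Ret, Etv5, Kitl, Kit, Fgf2, Fgf9 and Csf1 are 9 genes of the signals that pass from somatic cells of the testis to germ cells: ligands, their receptors and 1 target gene. They were taken by symbol from the 31017 symbols of the count tables, and each symbol had 1 identifier. The tables hold single-cell RNA sequencing of mouse testis in 4 libraries, 1 library per group. All mice were of the labelled strain Acr-Gfp tg (C57BL/6). In the culture groups, pieces of testis from mice aged 7 days postpartum (dpp) stayed 2 days (the short culture) or 7 days (the long culture) on agarose gel. The medium was α-MEM with AlbuMAX, and a PDMS chip served as ceiling. The other groups are testes named only by age, 9 dpp and 14 dpp, although the protocol text describes culture for every sample, and its library section speaks of female gonads. With their time in culture the cultured pieces reached ages of 9 and 14 days, so the short culture was set against 9 dpp and the long culture against 14 dpp. Cells were freed with collagenase and trypsin and captured with the Chromium 3′ v2 kit, per the labels. A unique molecular identifier (UMI) marks 1 captured transcript, and levels are in CPM, the UMIs of a gene per 1000000 UMIs of the cells summed.

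GDNF is a ligand made by Sertoli cells and peritubular myoid cells that keeps spermatogonial stem cells renewing. It binds the co-receptor GFRA1, which then activates the receptor tyrosine kinase RET, and the transcription factor gene Etv5 is a known target of GDNF and FGF signals in these cells. Kitl encodes the KIT ligand, also called stem cell factor, and its receptor KIT is carried by differentiating spermatogonia and by Leydig cells. FGF2 and FGF9 are fibroblast growth factors known to act on spermatogonia, and CSF1 is the growth factor of macrophages and has also been described as a signal to spermatogonial stem cells.

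Between 4806 and 6867 cells were kept per library, with 32011090 to 57429632 UMIs, the fewest in the short culture. With 1 library per group no difference between culture and in vivo testis has a replicate check, and culture and library cannot be told apart. Intervals in parentheses are at 95% and cover counting error only. Cells were classed by the UMIs of marker lists that hold none of the 9 genes. This gave 11518 germ-like, 3620 Sertoli-like, 6519 stromal- or myoid-like and 339 Leydig-like cells, with 210, 35, 86 and 25 of them near a class boundary, and 598 cells stayed unassigned. Leydig-like cells numbered 65 to 114 per library. Pairs of libraries shared 35 to 86 cell barcodes.

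Cultured and in vivo cells stood apart in more than the 9 genes. In clusters built from all cells, Sertoli-like cluster 4 held 1220 cells of the short and 527 of the long culture, cluster 12 held 864 cells of 9 dpp, and cluster 9 held 1065 cells of 14 dpp. Of the stromal- or myoid-like clusters, 1 and 3 held 1345 and 1147 cells of the short and 806 and 668 of the long culture, and 7 and 8 held 757 and 744 cells of 9 dpp and 634 and 435 of 14 dpp. Of the germ-like clusters, 0 held 1356 and 633 cells of the short and long culture against 177 and 191 for 9 and 14 dpp, and 2 held 33 and 30 against 981 and 836. The median depth of Sertoli-like cells was 3285.5 UMIs in the short culture and 9202 to 13986 UMIs in the other libraries. The germ-like marker list stood at 1444 CPM in Sertoli-like cells of 14 dpp and at 223 to 358 CPM in those of the other libraries. The part of these shifts in the results was not tested, apart from the free RNA correction given below.

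Over whole libraries, Csf1 was the gene with the largest difference of the 9 in both comparisons. Its level was 22.5 CPM in the short culture against 5.14 CPM for 9 dpp, and 16.3 CPM in the long culture against 6.72 CPM for 14 dpp. It was 4.38-fold higher in the short culture (3.82 to 5.03) and 2.42-fold higher in the long culture (2.12 to 2.76). Both cultures thus lay above both in vivo libraries. Ret had the lowest ratio in the short culture, at 3.19 CPM against 7.91 CPM for 9 dpp, 2.48-fold lower (2.00 to 3.11). In the long culture Ret stood at 5.60 CPM against 5.15 CPM for 14 dpp, and the interval of the ratio included no difference. Gdnf and Gfra1 were also lower in the short culture, 1.68-fold (1.33 to 2.14) and 1.85-fold (1.44 to 2.39), and had long-culture ratios of 1.01 (0.781 to 1.30) and 1.08 (0.867 to 1.35).

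On log2 ratios of CPM plus 1, 1 of the 9 genes was at least 2-fold higher in the short culture (Csf1) and 1 at least 2-fold lower (Ret). Of all 16613 genes with at least 50 UMIs, 4.15% were that much higher and 3.41% that much lower. In the long culture 1 of the 9 was higher (Csf1) and 0 were lower, beside 3.62% and 2.68% of all genes. The call on Ret, at -1.09, was -0.95 with TMM factors and -0.91 with cells weighted equally, and the long-culture call on Csf1, at 1.16, was 0.91 with cells weighted equally. The short-culture ratio of Csf1, at 1.94, was 1.24 with cells weighted equally. The median ratio of the 9 was -0.23 for the short and 0.09 for the long culture, beside -0.12 and 0.002 for all genes tested.

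**Figure D1:**
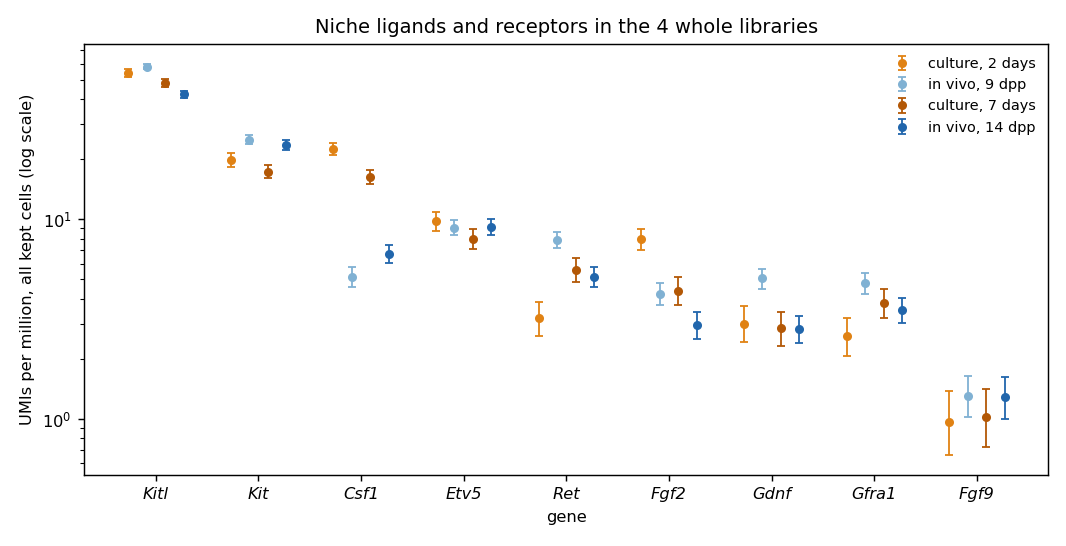
Level of each of the 9 genes in the 4 whole libraries, in CPM on a log axis; points are libraries, 1 per group, and bars are exact Poisson 95% intervals. Csf1 lies at 22.5 and 16.3 in the cultures and at 5.14 and 6.72 in vivo, while Etv5 lies between 8.01 and 9.78 in all libraries.

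Most UMIs of the ligands Gdnf, Kitl, Csf1 and Fgf2 were in somatic classes, and most of Gfra1, Ret, Kit and Fgf9 in germ-like cells. Stromal- or myoid-like cells held 72.3% to 89.8% of the Fgf2 UMIs of a library and 74.0% to 80.7% of the Csf1 UMIs. Sertoli-like cells held 72.7% to 87.5% of the Kitl UMIs and 49.3% to 75.0% of the Gdnf UMIs. Germ-like cells held 77.9% to 98.0% of the Gfra1 UMIs and 88.2% to 97.9% of the Ret UMIs. They also held 70.6% to 85.7% of the Kit UMIs and 76.3% to 97.2% of the Fgf9 UMIs. Etv5 was spread over the classes, with 24.9% to 51.1% of its UMIs in germ-like cells.

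Each somatic class was then set against germ-like cells of the same library, which gives 4 values per gene and class. Of 18 such contrasts, 16 had 1 direction in 4 of 4 libraries. The share of all genes with 1 direction in these contrasts was not computed, so the count does not set the niche genes apart from other genes. For Kitl the Sertoli-like minus germ-like difference in log2(CPM + 1) was 6.30 ± 0.46 (SD, n = 4 libraries). For Csf1 and Fgf2 the stromal- or myoid-like minus germ-like difference was 4.93 ± 0.66 and 3.85 ± 0.11 (SD, n = 4). The same difference was -3.08 ± 0.78 for Ret and -3.06 ± 0.54 for Kit (SD, n = 4). The exceptions were in Sertoli-like cells, where Etv5 was higher than in germ-like cells in 3 of 4 libraries and Fgf2 in 1 of 4. By a two-sided exact sign-flip permutation test the 16 contrasts reached the smallest p that 4 libraries can give, which is above 0.05, so that the test could not have called any of them.

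**Figure D2:**
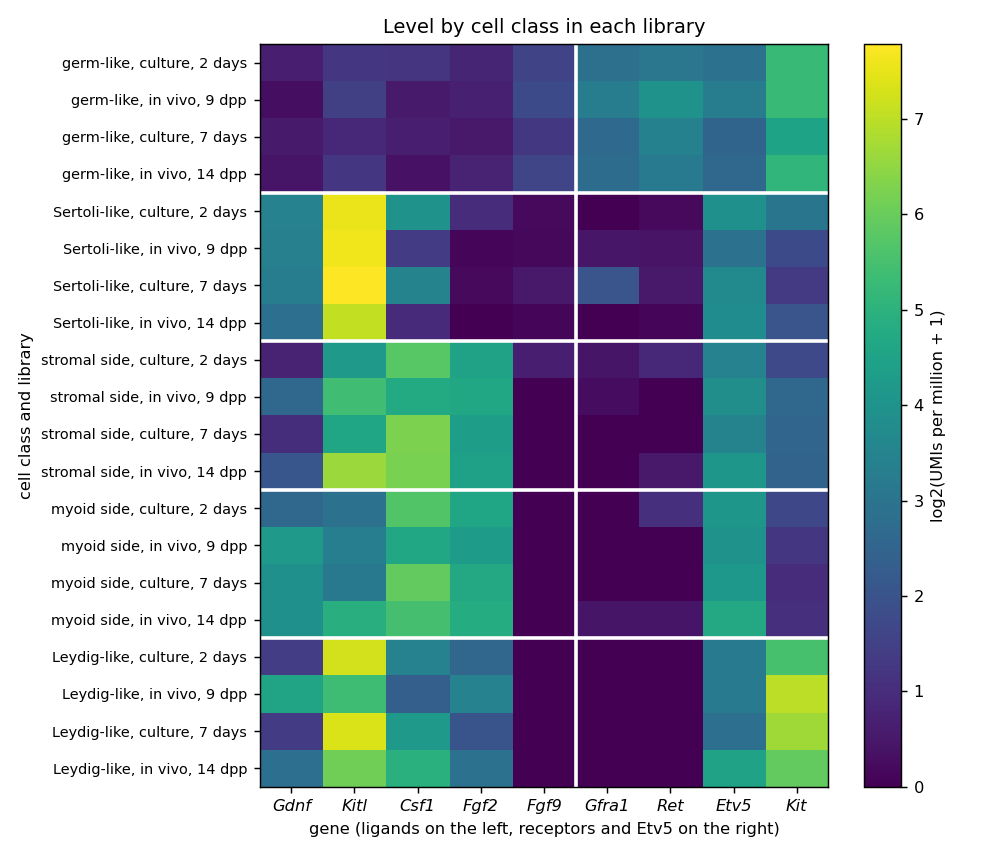
Level of the 9 genes as log2(CPM + 1), with cell classes and libraries in rows and genes in columns; the stromal- or myoid-like class is shown by its sides, and colour gives the level. Kitl is high in the Sertoli-like rows and in Leydig-like rows of the cultures, and Gfra1 and Ret are low outside the germ-like rows, with 3.17 CPM of Gfra1 in Sertoli-like cells of the long culture.

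Gdnf, on chromosome 15 (GRCm38, 7810846 to 7837575, plus strand), was lower in CPM in stromal- or myoid-like cells of both cultures, while in Sertoli-like cells the short-culture interval included no difference. In Sertoli-like cells it stood at 9.98 CPM in the short culture, 9.51 CPM for 9 dpp, 8.91 CPM in the long culture and 6.20 CPM for 14 dpp. The short-culture ratio was 1.05 (0.780 to 1.40) and the long-culture ratio 1.44 (1.01 to 2.03). With free RNA subtracted, the long-culture log2 ratio was 0.32 in place of 0.52, from 9.35 against 7.49 CPM; no interval was computed for the subtracted values. In stromal- or myoid-like cells Gdnf stood at 1.44 CPM in the short culture and 10.8 CPM for 9 dpp, from 15 and 101 UMIs. This is 7.49-fold lower (4.33 to 13.9), and 0.627% of the genes tested in this class had a lower ratio. The long culture had 4.85 CPM against 9.23 CPM for 14 dpp, 1.90-fold lower (1.19 to 3.08).

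The class was divided into a myoid side and a stromal side by which of the marker lists, smooth muscle or fibroblast, had the higher score in a cell. Gdnf was higher on the myoid side in 4 of 4 libraries. There it stood at 5.04 CPM in the short culture and 17.1 CPM for 9 dpp, 3.39-fold lower (1.69 to 7.69), and at 13.9 CPM in the long culture and 14.1 CPM for 14 dpp. On the stromal side it had 6 UMIs in the short culture and 26 for 9 dpp, 0.69 against 5.22 CPM. In the long culture and 14 dpp that side had 5 and 7 UMIs, 1.04 against 3.21 CPM, and the interval of the ratio included no difference. The make-up of the class moved with these values, since the myoid side was 23.2% of it in the short culture, 48.5% for 9 dpp, 35.9% in the long culture and 58.2% for 14 dpp. The short-culture level was lower on each side, whereas the long-culture ratio on the myoid side was 0.985 (0.582 to 1.65). In Leydig-like cells Gdnf had 27 UMIs for 9 dpp (22.3 CPM) and 10 for 14 dpp (6.11 CPM), and 1 UMI in each culture.

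The bases before the start sites of Gdnf and Csf1 are shown because these ligands differed in opposite directions in stromal- or myoid-like cells of the short culture. Both windows are 250 bases long, from RefSeq on GRCm38.p6, which had promoter entries for 8 of the 9 genes. Capitals mark TATAAA, the TATA box, and TGACG or its reverse complement CGTCA, the core of the cAMP response element.
Gdnf, chr15:7809798-7810047, plus strand: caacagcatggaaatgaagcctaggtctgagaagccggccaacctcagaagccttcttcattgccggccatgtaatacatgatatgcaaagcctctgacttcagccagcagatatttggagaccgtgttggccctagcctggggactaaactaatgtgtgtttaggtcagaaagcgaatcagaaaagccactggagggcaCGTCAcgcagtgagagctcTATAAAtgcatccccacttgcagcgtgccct
Csf1, chr3:107760470-107760719, minus strand: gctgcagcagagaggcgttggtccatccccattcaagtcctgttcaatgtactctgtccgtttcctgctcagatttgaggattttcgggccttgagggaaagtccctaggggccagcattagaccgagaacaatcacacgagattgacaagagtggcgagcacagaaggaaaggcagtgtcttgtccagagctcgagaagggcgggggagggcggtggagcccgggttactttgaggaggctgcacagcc
The Gdnf window lies before start site 1 of the 2 listed, upstream of the gene start of the annotation given above. In it TATAAA begins 31 bases and CGTCA 50 bases before the start, without overlap. The Csf1 window has neither motif. Kitl, not printed, has TATAAA beginning 25 bases before its start. Fgf2, also not printed, has CGTCA beginning 140 bases and TGACG 6 bases before its start. Fgf9 has TGACG beginning 64 bases before its start. Searched on both strands, TATAAA occurs in 12.4% and TGACG in 17.8% of the 32851 promoter windows of this length, and the motifs were chosen after the windows had been looked at. A match describes letters only, and reads of this 3′ kit do not show which start site was used.

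Kitl, on chromosome 10 (100015630 to 100100416, plus strand), differed between culture and in vivo in opposite directions in different somatic classes. In Sertoli-like cells it stood at 185.8 CPM in the short culture and 194 CPM for 9 dpp, a ratio of 0.956 (0.895 to 1.02). The long culture held 219.7 CPM against 132 CPM for 14 dpp, 1.66-fold higher (1.55 to 1.78). The long culture was the highest and 14 dpp the lowest of the 4. The estimated share of free RNA in Sertoli-like cells was 28.9% for 14 dpp and 6.97% in the long culture, and with free RNA subtracted the long-culture log2 ratio was 0.48 in place of 0.73.

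Stromal- or myoid-like cells had less Kitl in the cultures. The levels were 15.4 CPM in the short culture, 26.4 CPM for 9 dpp, 18.5 CPM in the long culture and 59.1 CPM for 14 dpp. The cultures were 1.72-fold (1.40 to 2.11) and 3.19-fold (2.58 to 3.97) lower. On the stromal side Kitl stood at 17.1 and 23.0 CPM in the short and long cultures against 41.6 CPM for 9 dpp and 96.9 CPM for 14 dpp, 2.43-fold (1.96 to 3.02) and 4.22-fold (3.34 to 5.36) lower. On the myoid side the long culture was 3.60-fold lower (2.08 to 6.61), and the short-culture interval included no difference.

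Leydig-like cells, which make testosterone, went the other way. Kitl stood at 151 CPM in the short and 161 CPM in the long culture, against 40.6 CPM for 9 dpp and 67.2 CPM for 14 dpp. The ratios were 3.73 (2.61 to 5.39) and 2.39 (1.81 to 3.16). With classes taken from clusters, the long-culture log2 ratio was 0.78 in place of 1.26. In these cells the Leydig-like marker list stood at 10007 CPM in the short culture and 18492 CPM for 9 dpp, and the Sertoli-like list at 4618 to 4956 CPM in the 4 libraries; their part in the result was not tested.

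By cells, a Kitl UMI was found in 48.9% of Sertoli-like cells of the short culture, 82.3% for 9 dpp, 78.5% in the long culture and 67.1% for 14 dpp. Germ-like cells, which should lack the ligand, had one in 0.569% to 2.07%, at median depths of 3579 to 10994 UMIs. With each cell thinned to 2000 UMIs, the Sertoli-like shares were 30.3%, 30.9%, 37.5% and 24.8% in the same order, and the germ-like shares 0.167% to 0.362%. At equal depth the short culture and 9 dpp thus had overlapping intervals. Thinning left out 456 Sertoli-like cells of the short culture and 15 to 73 of the other libraries.

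**Figure D3:**
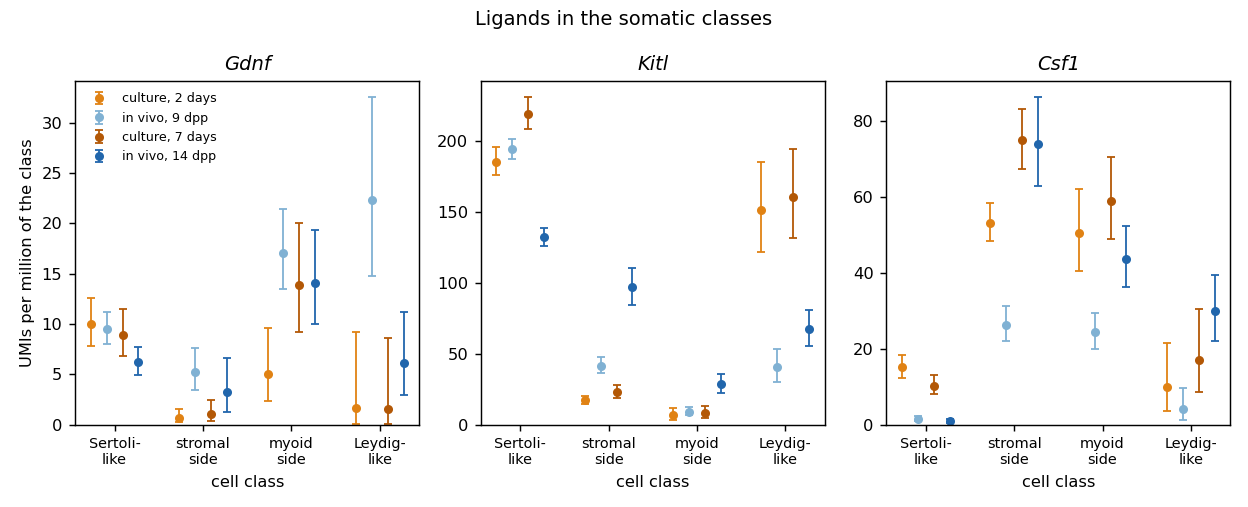
Level of Gdnf, Kitl and Csf1 in 4 groups of somatic cells, in CPM of that group; points are libraries and bars are exact Poisson 95% intervals. The cultures lie above the in vivo libraries for Csf1 in Sertoli-like cells (15.1 and 10.3 against 1.60 and 0.92) and for Kitl in Leydig-like cells, and below them for Kitl on the stromal side.

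Csf1, on chromosome 3 (107741048 to 107760469, minus strand), was higher in Sertoli-like cells of both cultures and in stromal- or myoid-like cells. In Sertoli-like cells it stood at 15.1 CPM in the short culture and 1.60 CPM for 9 dpp, from 109 and 24 UMIs. The long culture had 10.3 CPM and 14 dpp had 0.92 CPM, from 68 and 12 UMIs. The cultures were 9.47-fold (6.05 to 15.4) and 11.2-fold (6.00 to 22.7) higher. The stromal-like marker list in these Sertoli-like cells stood at 201 CPM in the short and 85.6 CPM in the long culture, and at 89.1 CPM for 9 dpp and 57.7 CPM for 14 dpp, against 13956 to 15675 CPM in stromal- or myoid-like cells. With free RNA subtracted, Csf1 in Sertoli-like cells was 14.4 and 9.81 CPM in the cultures, 1.18 CPM for 9 dpp and 0.00 CPM for 14 dpp.

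In stromal- or myoid-like cells Csf1 stood at 52.8 CPM in the short culture, 25.4 CPM for 9 dpp, 70.2 CPM in the long culture and 57.2 CPM for 14 dpp. The ratios were 2.08 (1.78 to 2.43) and 1.23 (1.06 to 1.43). On the stromal side the long culture and 14 dpp stood at 74.9 and 73.9 CPM, a ratio of 1.01 (0.839 to 1.23), and on the myoid side the ratio was 1.35 (1.04 to 1.75). The class also took unequal shares of the libraries, 35.3% of kept cells in the short culture against 29.3% for 9 dpp, and 30.9% in the long culture against 17.9% for 14 dpp. Its share of the UMIs of the library was 32.6% in the short culture against 16.3% for 9 dpp, and 18.4% in the long culture against 8.69% for 14 dpp.

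Csf1r, the receptor gene of CSF1, had whole-library levels of 1.37 CPM in the short and 3.22 CPM in the long culture, against 3.64 and 4.72 CPM for 9 and 14 dpp. Macrophage-like cells, whose marker list includes Csf1r, numbered 10 and 17 in the cultures and 28 and 47 in vivo, too few to compare levels within them. Il34, the other ligand of that receptor, stood at 11.5 and 7.78 CPM in stromal- or myoid-like cells of the cultures and at 0.53 and 1.85 CPM in those of 9 and 14 dpp. Its log2 ratios of CPM plus 1 there were 3.03 and 1.63.

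Fgf2, on chromosome 3 (37348346 to 37410108, plus strand), differed over whole libraries, while within its main class the intervals included no difference. Whole libraries held 7.93 CPM in the short culture against 4.23 CPM for 9 dpp, and 4.38 CPM in the long culture against 2.96 CPM for 14 dpp. The ratios were 1.87 (1.57 to 2.24) and 1.48 (1.19 to 1.85). Within stromal- or myoid-like cells it stood at 21.9 CPM in the short culture, 21.5 CPM for 9 dpp, 21.0 CPM in the long culture and 24.6 CPM for 14 dpp. These ratios were 1.02 (0.840 to 1.24) and 0.853 (0.665 to 1.10).

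Fgf9, on chromosome 14 (58070547 to 58112720, plus strand), had 31 to 75 UMIs per library. In germ-like cells it stood at 2.00, 2.34, 1.42 and 2.08 CPM in the short culture, 9 dpp, the long culture and 14 dpp, and no difference was detectable at this depth. In undifferentiated spermatogonia it had 4 UMIs in the long culture and 27 for 14 dpp, 2.97-fold lower (1.03 to 11.7). Sertoli-like cells, a known source of the ligand in the fetal testis, had 1 to 3 Fgf9 UMIs per library.

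Gfra1, on chromosome 19 (58235604 to 58455909, minus strand), and Ret, on chromosome 6 (118151745 to 118197718, minus strand), were highest in undifferentiated spermatogonia, the germ stage that includes the stem cells. The stage was set by 17 marker genes that include neither receptor, but 7 of the 17 are in a list of genes known to respond to GDNF, and 1036 of 11518 germ-like cells lay near a boundary between stages. In this stage Gfra1 stood at 35.1 CPM in the short culture, 24.8 CPM for 9 dpp, 37.1 CPM in the long culture and 27.1 CPM for 14 dpp. Ret stood at 48.3, 42.8, 69.2 and 41.3 CPM in the same order. Ret thus had its highest level of the 4 in the long culture, while for Gfra1 the short and long cultures lay close together. Cluster 0 held 53.04%, 12.5%, 37.6% and 20.2% of the cells of this stage in the same order, and its part in these levels was not tested. Leydig-like cells had 0 UMIs of either gene in each library, which allows at most 1.83 to 4.94 CPM by the limit of 3 counts.

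Within the stage, the short-culture ratios were 1.42 for Gfra1 (0.890 to 2.16) and 1.13 for Ret (0.765 to 1.61), from 24 and 33 UMIs in the culture. The long-culture ratios were 1.37 for Gfra1 (1.05 to 1.77) and 1.67 for Ret (1.37 to 2.04). With stages set after thinning, the long-culture log2 ratio of Gfra1 was 1.06 in place of 0.46. Over all germ-like cells Gfra1 was 1.36-fold (1.05 to 1.78) and Ret 1.94-fold (1.54 to 2.46) lower in the short culture, and the long-culture intervals included no difference.

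Cells of the stage were fewer in the short culture. They numbered 115 of 2810 germ-like cells there, 615 of 2513 for 9 dpp, 189 of 2509 in the long culture and 441 of 3686 for 14 dpp. After thinning to 2000 UMIs the shares were 1.14% (0.754 to 1.66), 8.57% (7.50 to 9.74), 2.63% (2.02 to 3.35) and 4.32% (3.68 to 5.03) in the same order. Part of the receptor UMIs of the short culture lay in other stages. In its differentiating spermatogonia Gfra1 and Ret had 41 and 44 UMIs, at levels 3.35-fold (2.00 to 5.70) and 2.67-fold (1.67 to 4.29) higher than for 9 dpp. Germ-like cells of the short culture had a median of 3579 UMIs against 10994 for 9 dpp, and the lower share of the stage in the short culture is also seen in the thinned values above. The receptor levels of differentiating spermatogonia in the short culture were not recomputed on thinned stages.

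In Sertoli-like cells Gfra1 had 0 UMIs in the short culture and for 14 dpp, 6 UMIs for 9 dpp and 21 UMIs in the long culture. The 21 came from 7 of 540 cells, with up to 6 in 1 cell, and Ret had 3 UMIs in the same class.

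Etv5, on chromosome 16 (22381309 to 22439719, minus strand), was high in the same germ stage and also in somatic classes. In undifferentiated spermatogonia it stood at 32.2 CPM in the short culture, 24.4 CPM for 9 dpp, 29.5 CPM in the long culture and 23.4 CPM for 14 dpp, and the intervals of both ratios included no difference. In differentiating spermatogonia it was 1.08 to 3.89 CPM. In Sertoli-like cells it stood at 14.0, 6.45, 12.2 and 12.9 CPM in the same order, with 9 dpp as the low value. It was 2.17-fold higher in the short culture than for 9 dpp (1.63 to 2.90). In stromal- or myoid-like cells it was 1.75-fold lower in the long culture than for 14 dpp (1.30 to 2.36).

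Gfra1, Ret and Etv5 were found together in single cells. Of germ-like cells with a Gfra1 UMI, 57.5% for 9 dpp also had a Ret UMI (49.6 to 65.1), against 8.35% of those without. The shares were 31.1% in the short culture, 59.5% in the long culture and 53.4% for 14 dpp, against 2.00% to 3.63% of cells without Gfra1. An Etv5 UMI was found in 27.9% to 45.5% of cells with Gfra1 and in 1.77% to 4.13% of cells without. A Kit UMI was found in 13.8% of cells with Gfra1 and 30.2% of cells without for 9 dpp, and in 12.2% and 22.0% for 14 dpp. In the cultures the Kit shares were 6.56% against 13.7% and 13.5% against 14.3%. By Ret, a Kit UMI was found in 6.76% of cells with and 13.7% without in the short culture. The long culture went the other way, with 17.1% against 14.1%, at median depths of 14189 against 6310 UMIs. For 9 and 14 dpp the shares by Ret were 13.4% against 31.2% and 11.6% against 22.3%. These shares are not at like depth: cells with a Gfra1 UMI had median depths of 4604 UMIs in the short culture, 13748 for 9 dpp, 13306 in the long culture and 13176 for 14 dpp, and cells without of 3539, 10580.5, 6381 and 6527 UMIs.

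**Figure D4:**
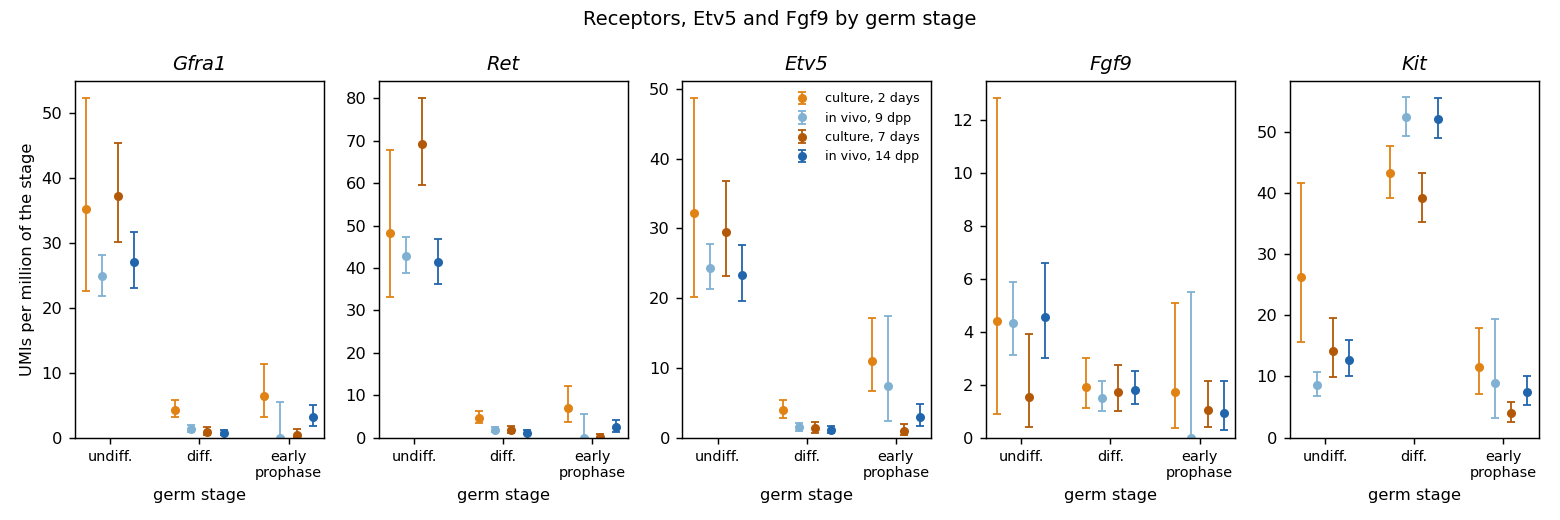
Level of Gfra1, Ret, Etv5, Fgf9 and Kit in 3 germ stages of each library, in CPM of the stage; points are libraries and bars are exact Poisson 95% intervals. Gfra1, Ret and Etv5 are highest in the undifferentiated stage, and Kit in the differentiating stage, where the cultures lie at 43.4 and 39.2 and the in vivo testes at 52.4 and 52.2.

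Kit, on chromosome 5 (75574916 to 75656722, plus strand), was lower in differentiating spermatogonia of both cultures. Its level there was 43.4 CPM in the short culture, 52.4 CPM for 9 dpp, 39.2 CPM in the long culture and 52.2 CPM for 14 dpp. The cultures were 1.21-fold (1.08 to 1.36) and 1.33-fold (1.18 to 1.50) lower. The cells compared lay partly in different clusters: of the differentiating spermatogonia, cluster 0 held 53.7% in the short and 34.1% in the long culture, and cluster 2 held 48.1% for 9 dpp and 34.02% for 14 dpp. The part of this split in the Kit values was not tested. Over all germ-like cells the short-culture ratio was 1.01 (0.900 to 1.12), and the long culture was 1.52-fold lower (1.36 to 1.70). Early prophase cells, in which Kit was 4.00 to 11.6 CPM, were 22.6% of germ-like cells in the short culture and 4.78% for 9 dpp. They were 37.8% in the long culture and 25.5% for 14 dpp, and their part in these ratios was not tested. In undifferentiated spermatogonia Kit stood at 26.3 CPM in the short culture against 8.65 CPM for 9 dpp, 3.04-fold higher (1.72 to 5.12), from 18 UMIs in the culture. In this stage 20 of 115 cells of the short culture and 27 of 615 for 9 dpp lay near a stage boundary. Median depths of the stage were 5593 and 15012 UMIs, and the part of either in this value was not tested.

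Outside germ cells, Kit stood at 44.4 CPM in Leydig-like cells of the short culture, 127 CPM for 9 dpp, 101 CPM in the long culture and 59.9 CPM for 14 dpp. It was 2.85-fold lower in the short culture (1.88 to 4.46) and 1.68-fold higher in the long culture (1.21 to 2.32). In these cells the Leydig-like marker list stood at 10007, 18492, 12722 and 13481 CPM in the same order, and 11 of 77, 3 of 83, 3 of 65 and 8 of 114 cells lay near the class boundary; their part in the Kit values was not tested. Its ligand Kitl was higher in these cells in both cultures. In Sertoli-like cells Kit stood at 7.21, 2.33, 1.51 and 3.14 CPM in the same order, and with free RNA subtracted at 6.01, 0.00, 0.32 and 0.00 CPM, which turns the direction of the long-culture comparison.

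**Figure D5:**
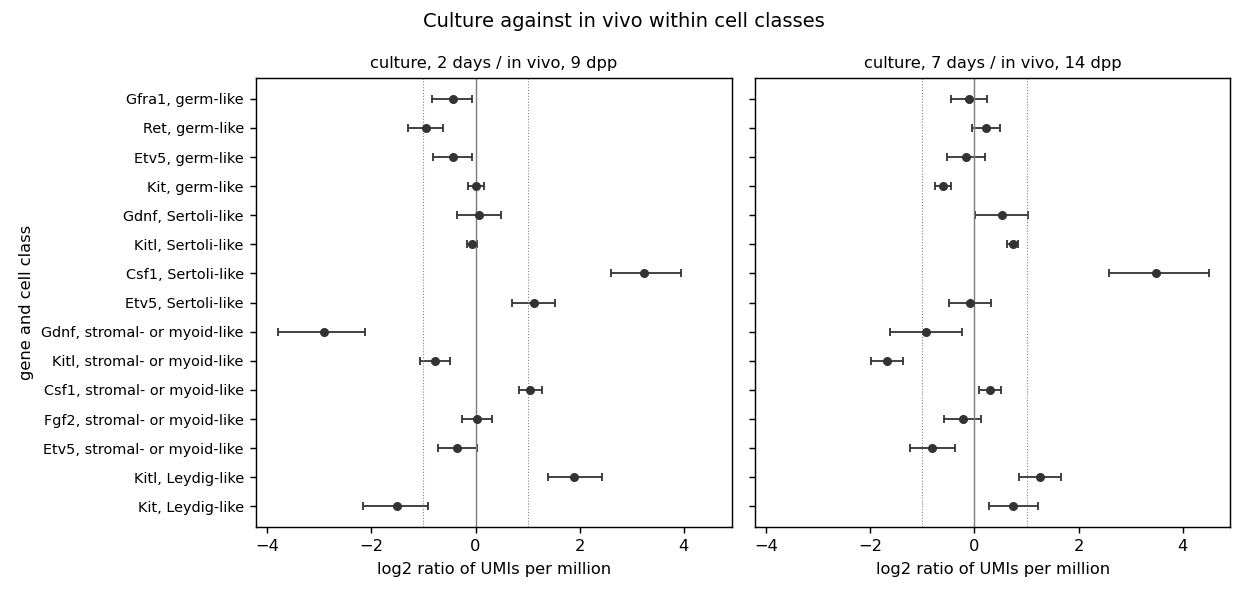
Log2 ratio of CPM, culture over in vivo, for 15 pairs of gene and cell class, short culture on the left and long culture on the right; bars are exact 95% intervals for counting error, the solid line is no difference and dotted lines are 2-fold. Csf1 in Sertoli-like cells lies at 3.24 and 3.48, and Gdnf in stromal- or myoid-like cells at -2.91 and -0.93.

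Within classes, members past 2-fold on log2 ratios of CPM plus 1 were counted beside all genes with at least 50 UMIs in the class. In germ-like cells 8 of the 9 had enough UMIs and 0 were past 2-fold, beside 1.26% of genes higher and 3.13% lower in the short culture and 0.762% and 2.31% in the long culture. In Sertoli-like cells 5 had enough UMIs. In the short culture 3 were higher (Csf1, Kit and Etv5) and 0 lower, beside 6.53% and 6.25%, and in the long culture 1 was higher (Csf1) and 0 lower, beside 10.1% and 8.66%. In stromal- or myoid-like cells 6 had enough UMIs. In the short culture Csf1 was higher and Gdnf lower, beside 5.8% and 7.21%, and in the long culture 0 were higher and Kitl was lower, beside 5.02% and 4.83%.

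In Leydig-like cells 4 had enough UMIs. In the short culture Kitl and Csf1 were higher and Kit lower, beside 6.01% and 10.9%, and in the long culture Kitl was higher and Etv5 lower, beside 6.65% and 8.74%. The Csf1 count there rests on 6 and 5 UMIs, 9.88 against 4.14 CPM, within counting error. Csf1 in Leydig-like cells of the long culture was 17.0 CPM against 29.9 CPM for 14 dpp, from 11 and 49 UMIs, also within counting error. In undifferentiated spermatogonia 5 had enough UMIs. In the short culture Kit was higher and 0 were lower, beside 3.37% and 8.02%, and in the long culture 0 were higher and Fgf9 was lower, beside 0.878% and 2.05%.

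Of 12 genes known to respond to GDNF in spermatogonia, 11 had enough UMIs in germ-like cells. In the short culture 5 of the 11 were at least 2-fold lower and 0 higher, beside 3.13% and 1.26% of all genes there, and the median log2 ratio of the 11 was -0.81, beside -0.004. The 5 were Egr4, Mycn, Id4, Nanos2 and Lhx1, of which Id4, Nanos2 and Lhx1 are named after their values were seen. All but Mycn are also markers of the undifferentiated stage, whose cells were fewer, and fewer cells and less RNA per cell cannot be told apart in that sum. Egr4, an immediate early transcription factor, stood at 39.1 CPM in germ-like cells of the short culture and 125 CPM for 9 dpp, and Mycn, a growth regulator, at 17.2 and 49.8 CPM. The undifferentiated stage was itself set by UMIs of 7 of the 12 list genes, so no count of the list is given within it. Mycn, which is not among the 7, stood in that stage at 20.5 CPM in the short culture and 59.4 CPM for 9 dpp. In the long culture 1 of 11 was lower in germ-like cells (Pou3f1), beside 2.31%, and the median was -0.61, beside -0.01 for all genes. The undifferentiated stage, marked by 7 of the 12, was 7.53% of germ-like cells there and 11.96% for 14 dpp. Pou3f1 is named after its values were seen.

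Egr2, an early growth response gene of the same list, went the other way in somatic cells. It stood at 34.7 and 38.0 CPM in stromal- or myoid-like cells of the short and long culture and at 7.69 and 5.33 CPM in those of 9 and 14 dpp. In Sertoli-like cells Egr2 stood at 11.8 and 48.5 CPM in the cultures and at 3.12 and 1.76 CPM in vivo. In germ-like cells it was 5.50 and 2.15 CPM in the cultures and 8.54 and 4.61 CPM in vivo.

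The counts of the next lists are over whole libraries, where 4.15% of all genes were higher and 3.41% lower in the short culture, and 3.62% and 2.68% in the long culture. Class shares of the UMIs differed between libraries, as given above for stromal- or myoid-like cells, and their part here was not tested. Among the other GDNF family genes, 6 of 8 had enough UMIs in whole libraries, and 0 were higher and 1 lower past 2-fold in each comparison. That gene was Gfra3, the co-receptor of artemin, with log2 ratios of CPM plus 1 of -1.74 and -1.04 in the short and long culture. Gfra4, the co-receptor of persephin, had -0.24 and -0.16, and Ncam1, another receptor of GDNF, had 0.98 and 0.13. Of 13 FGF receptors and feedback genes, 1 was higher in the short culture (Spry2, at 1.14) and 0 in the long culture. Fgfr1, a receptor of FGF2, had 0.72 and 0.61 over whole libraries, and in stromal- or myoid-like cells it stood at 133 and 124 CPM in the cultures and 112 and 113 CPM in vivo. Fgfr2, Fgfr3 and Fgfr4 lay between -0.28 and 0.28, and the feedback inhibitor Spry1 had 0.61 and 0.73.

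Of 17 other FGF ligands, 9 had enough UMIs and 1 was higher in both comparisons. That was Fgf7, a ligand of mesenchymal cells, at 37.2 CPM in stromal- or myoid-like cells of the short culture against 7.26 CPM for 9 dpp, and at 17.6 CPM in the long culture against 5.13 CPM for 14 dpp. Over whole libraries Fgf8 had log2 ratios of -0.72 and -0.15, Fgf3 had -0.76 and -0.36 and Fgf18 had 0.32 and 0.72. Of 13 genes of the KIT programme in differentiating spermatogonia, 1 was lower in the short culture (Dmrtb1) and 0 in the long culture. Within germ-like cells Stra8 was higher and Dmrtb1 and Rarg lower in the short culture, beside 1.26% and 3.13%, and 0 were higher and Rarg and Ccnd2 lower in the long culture, beside 0.762% and 2.31%. These 4 genes are named after their values were seen, and 5 of the 13 are markers of the differentiating stage. The transcription factor genes Sohlh1 and Dmrt1 had -0.61 and -0.80 in the short culture and -0.83 and -0.57 in the long culture, and the DNA methyltransferase gene Dnmt3b had -0.49 and -0.50.

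Of 15 regulators of Gdnf in somatic cells, 14 had enough UMIs, with 2 higher (Tnfrsf1a and Il1a) and 1 lower (Fshr) in the short culture and 1 higher (Heyl) in the long culture. Fshr, the receptor of follicle-stimulating hormone and itself a Sertoli-like marker, stood in Sertoli-like cells at 6.24 and 9.51 CPM in the cultures and at 20.1 and 12.3 CPM for 9 and 14 dpp. Tnfrsf1a, a receptor of tumour necrosis factor, stood in stromal- or myoid-like cells at 196 and 208 CPM in the cultures and at 88.6 and 99.7 CPM in vivo. Notch2, a receptor of Notch ligands, had whole-library log2 ratios of 0.83 and 0.42. Of 18 other niche genes, 17 had enough UMIs, and 1 was higher in the short culture (Ccl9) and 3 in the long culture (Ccl9, Nrg1 and Inhba). Il1a, Heyl and Inhba are named after their values were seen, and Inhba is itself in the stromal-like marker list. The chemokine gene Ccl9 had 2.46 and 4.37, the growth factor gene Nrg1 had 0.71 and 1.42, and the chemokine gene Cxcl12 had 0.87 and 0.96. Within stromal- or myoid-like cells Cxcl12 stood at 427 and 436 CPM in the cultures and 457 and 385 CPM in vivo.

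The comparisons over time use the same 4 libraries, so their values are given side by side only. Between 9 and 14 dpp, Kitl in Sertoli-like cells was 1.47-fold lower at the later age (1.38 to 1.56), and in stromal- or myoid-like cells 2.24-fold higher (1.88 to 2.67). Csf1 in the latter class was 2.25-fold higher (1.89 to 2.69), and Etv5 in Sertoli-like cells 2.01-fold higher (1.55 to 2.60). Gdnf in Sertoli-like cells was 1.53-fold lower (1.16 to 2.04). Between the cultures, Gdnf in stromal- or myoid-like cells was 3.37-fold higher in the long one (1.78 to 6.67), and Kitl in Sertoli-like cells 1.18-fold higher (1.10 to 1.27). In germ-like cells Gfra1, Ret and Etv5 were 1.51-fold, 1.73-fold and 1.68-fold lower for 14 dpp than for 9 dpp, while between the cultures Ret was 1.30-fold higher (1.01 to 1.69) and Kit 1.72-fold lower (1.51 to 1.96) in the long one.

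The genes most like each of the 9 were sought over 16 points, 4 classes in 4 libraries, by Pearson correlation of log2(CPM + 1). The points share libraries and differ mostly by class, so the values are a description. The nearest gene was Tspan7 for Gdnf (r = 0.94), Pak3 for Kitl (0.97), Cp for Csf1 (0.97) and Pltp for Fgf2 (0.99). It was Chrdl2 for Gfra1 (0.98), Prdm16 for Ret (0.99) and for Fgf9 (0.98), Lss for Kit (0.94) and Prkca for Etv5 (0.86).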

How the data were processed

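The authors deposited raw UMI counts per gene and cell barcode for 4 libraries, made with Cell Ranger 3.0.2 on mm10, per the submitters' processing notes. The 9 genes, lists and tests were chosen with earlier results of these data known. Identifiers that share a symbol were summed. Kept barcodes had at least 500 genes, at most 20% mitochondrial UMIs and no Scrublet doublet call (scanpy 1.11.5, 103 to 263 calls per library). Each class marker list's share of a cell's UMIs was divided by its mean in the 100 cells highest for it, and the highest list named the class if it had at least 3 markers, a score of at least 0.08 and at least 2 times the next. Germ stages needed at least 3 UMIs from at least 2 stage markers. These thresholds were set after the data were seen.

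UMIs were summed per library and class (at least 50 cells). Levels have exact Poisson, shares Clopper-Pearson and ratios exact conditional binomial intervals. Log2 ratios of CPM plus 1 used features reaching 50 UMIs over the 4 libraries. Free RNA was estimated from the library sum and from markers seen in the wrong class. Scripts were tested on simulated data. All 9 genes are named; from each list, up to 3 genes with the same sign in each comparison and the largest smaller ratio, and partners of the 9. Gene positions are from GENCODE on GRCm38. Alternatives were other cell filters, doublets kept, TMM factors (edgeR 4.0.16), equal cell weights, other constants, thresholds and minimums, Leiden clusters (leidenalg 0.10.2), a stricter class margin, thinned stages, free RNA subtraction, Spearman correlation and, chosen after seeing the data, cells with at least 2000 UMIs.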

Additional observations from a re-analysis of the deposited data

Results flagged for a closer look

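For 3 pairs of gene and cell group the log2 ratio of CPM lay on opposite sides of 0 in the short-culture and the long-culture comparison, with counting intervals that left out 0. The difference between the comparisons was not tested, since each rests on 1 library per group. Kitl over whole libraries had -0.108 in the short and 0.187 in the long culture. Kit in Sertoli-like cells had 1.63 in the short culture, from 52 and 35 UMIs, and -1.06 in the long culture, from 10 and 41 UMIs. With free RNA subtracted the long culture was at 0.32 CPM and 14 dpp at 0.00 CPM, so that the opposite directions of Kit in these cells were no longer seen. Kit in Leydig-like cells had -1.51 and 0.748.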

How the results depend on the processing

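Kitl over whole libraries reversed, with a log2 ratio of 0.0619 in the short culture with TMM factors and -0.22 in the long culture with cells weighted equally; the cause was not tested. Kit in Sertoli-like cells of the long culture also turned with free RNA subtracted, to 0.32 against 0.00 CPM, for which no ratio can be given. TMM factors moved the all-gene median of the short culture, which was -0.12 over whole libraries and became 0.02; for stromal- or myoid-like cells it was -0.17 and became -0.03. Of the 9 genes in whole libraries, 2 past 2-fold in the short culture became 1 with TMM factors, 1 with cells weighted equally and 1 with 10 added to the CPM, each by the loss of Ret, and 5 at a threshold of 1.5-fold. In the long culture 1, Csf1, became 0 with cells weighted equally and 0 with 10 added. List genes past 2-fold in whole libraries, 14 in the short and 8 in the long culture, became 25 and 16 with 0.1 added, 4 and 3 with 10 added, and 36 and 22 at 1.5-fold. In germ-like cells 11 and 6 became 6 and 1 with 10 added and 19 and 19 at 1.5-fold, and the 6 became 11 with 0.1 added. In Sertoli-like cells 16 and 19 became 3 and 4 with 10 added and 30 and 33 at 1.5-fold. In stromal- or myoid-like cells 18 and 14 became 7 and 5 with 10 added, and the 14 became 25 at 1.5-fold. A larger constant or lower threshold moves such counts by construction. Ratios whose intervals included no difference also changed sign with cells weighted equally: Gfra1 to -0.27 and Ret to -0.21 in the long culture, and Etv5 to -0.22 in the short culture. Of the values for single genes, 441 moved by less than their intervals and 38 by more. The 16 class contrasts with 1 direction numbered 16 under Leiden clusters, the stricter margin, TMM factors and cells with at least 2000 UMIs. With free RNA subtracted, Csf1 for 14 dpp was 0.00 CPM in both Sertoli-like and germ-like cells, so that contrast had no direction there. Of the 27 genes nearest by Pearson correlation, 3 per gene, 4 were also among the 3 nearest by Spearman correlation, and of the 9 named only Prdm16 for Ret was nearest by both. No paired analysis was possible because each group has 1 library and replicate number; a fit of both cultures against both in vivo libraries with age as a block, which would take the 2 culture times as 1 condition, was not run. Depth limits Fgf9, Gdnf in Leydig-like cells and the 115 undifferentiated cells of the short culture.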
